A study of Mus musculus with 4 samples.

Results

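The genes described here act in mitophagy, the removal of mitochondria by autophagy, and in the fusion and division of mitochondria. The set was named by gene symbol and holds 10 genes, which are the mitophagy receptor genes Bnip3, Bnip3l and Fundc1, the kinase gene Pink1, the ligase gene Mul1, the fusion genes Mfn1, Mfn2 and Opa1, and the fission genes Dnm1l and Fis1. Every array probe set annotated to 1 of these genes alone was read, which gave 22 probe sets for 9 genes out of 45037 probe sets on the array other than Affymetrix controls. The 3 probe sets of Bnip3l are listed together with its pseudogene Bnip3l-ps, so that none could be assigned to 1 gene and Bnip3l has no value here. Of the 22 probe sets, 19 reached the median signal of an array on at least 1 array, and all 9 genes kept at least 1 probe set among 12565 genes in all. The other 3 were dim, with signals between 1.4 and 13.1 for both Dnm1l probe sets and between 1.5 and 11.8 for the Mfn2 probe set, and were not used.

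The tissue was the gastrocnemius muscle of male mice of a C57BL/6N and FVBN cross, aged 2 to 4 months in the study's general methods. Control mice carried floxed FoxO1, FoxO3 and FoxO4 alleles (FoxO1,3,4 f/f, called wild type in the sample labels) and knockout mice carried the same alleles with Cre recombinase driven by the MLC1f promoter. This promoter works in type II but not type I fibres, so that slow fibres and other cells of the muscle keep their FoxO genes. Each genotype was either fed ad libitum or starved for 24 h with free access to water. For each condition, 6 muscles of 3 mice gave 1 RNA pool, which was hybridized to 1 array, giving 4 arrays with no replicate, so that conditions could not be tested against each other and the differences below lack a replicate check. The comparisons ask which genes respond to starvation and which of these responses are smaller without FoxO.

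Mitochondria are sorted for removal by 2 main routes. In the receptor route, proteins of the outer membrane such as BNIP3, its relative NIX (the product of Bnip3l) and FUNDC1 bind LC3 family proteins on the forming autophagosome. In the other route, the kinase PINK1 builds up on damaged mitochondria and marks them for ubiquitination. Fusion, by the mitofusins at the outer membrane and OPA1 at the inner membrane, and division, by the dynamin DRP1 (the product of Dnm1l) and its adaptors, set the size of the pieces that can be engulfed. In skeletal muscle, Bnip3 is known as a gene that FoxO3 can induce, and the ligase MUL1 is known to act on mitofusin 2 during wasting.

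Promoter sequences are shown for Bnip3 and Mul1, whose leading probe sets had the highest ratios on starvation in control muscle, and for Pink1, which had the lowest. All are the 250 bases before the RefSeq start of the gene in GRCm38.p6, written 5′ to 3′ on the gene's own strand, with the E-box motif CACGTG in capitals.
Bnip3, chr7:138909507-138909756, minus strand: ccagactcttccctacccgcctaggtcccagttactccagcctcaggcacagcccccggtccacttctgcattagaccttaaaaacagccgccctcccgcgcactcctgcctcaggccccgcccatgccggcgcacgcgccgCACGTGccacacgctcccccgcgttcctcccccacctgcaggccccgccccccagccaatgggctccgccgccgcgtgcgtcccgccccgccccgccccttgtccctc
Mul1, chr4:138434422-138434671, plus strand: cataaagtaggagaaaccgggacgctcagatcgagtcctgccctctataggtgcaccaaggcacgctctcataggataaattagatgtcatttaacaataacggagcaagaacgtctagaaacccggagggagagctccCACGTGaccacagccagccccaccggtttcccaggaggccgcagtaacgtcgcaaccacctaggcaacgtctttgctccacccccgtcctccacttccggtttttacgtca
Pink1, chr4:138326297-138326546, minus strand: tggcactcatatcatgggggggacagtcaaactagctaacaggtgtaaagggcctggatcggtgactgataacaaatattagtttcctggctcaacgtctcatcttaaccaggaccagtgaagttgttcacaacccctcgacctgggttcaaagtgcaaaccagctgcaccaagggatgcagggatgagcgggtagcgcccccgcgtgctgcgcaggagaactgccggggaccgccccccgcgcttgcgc
Promoters of 300 bases, 250 before to 50 after the start, were searched on both strands for 3 motifs in all 9 genes with an entry, which have 13 annotated starts. The FoxO core TGTTTAC was in none of the 13, against 3.65% of all 32851 promoters in the table. The related TGTTTAT was in 1, that of Opa1, against 4.60% of all promoters. CACGTG, which reads the same on both strands and does not overlap the other motifs, was in 2, those of Bnip3 and Mul1, against 7.15%. A match is a description of letters in this window, and their absence says nothing about a factor that may bind elsewhere.

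On starvation of control muscle, Bnip3 rose and Pink1 and Fundc1 fell at 1.5-fold, while no member passed this threshold in knockout muscle. A gene was called up at a ratio of starved to fed signal of at least 1.5 and down at 0.667 or less, the study's own threshold, on its probe set of highest mean signal. In control muscle, 1 of 9 genes was up and 2 were down, where 9.21% of all genes were up and 14.2% were down. In knockout muscle, 0 of 9 were up and 0 down, where 7.36% of all genes were up and 9.45% down. The 9 genes had a median log2 fold change of -0.29 in controls and 0.04 in knockouts, and all genes had -0.11 and -0.06. Up in control and under 1.5-fold in knockout muscle was 1 of 9, against 6.58% of all genes, and down in control and less so in knockout muscle were 2 of 9, against 10.3%. With 9 members, these counts are not read as apart from the background. In bulk tissue, fewer cells of a type and less RNA per cell cannot be told apart.

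**Figure D1:**
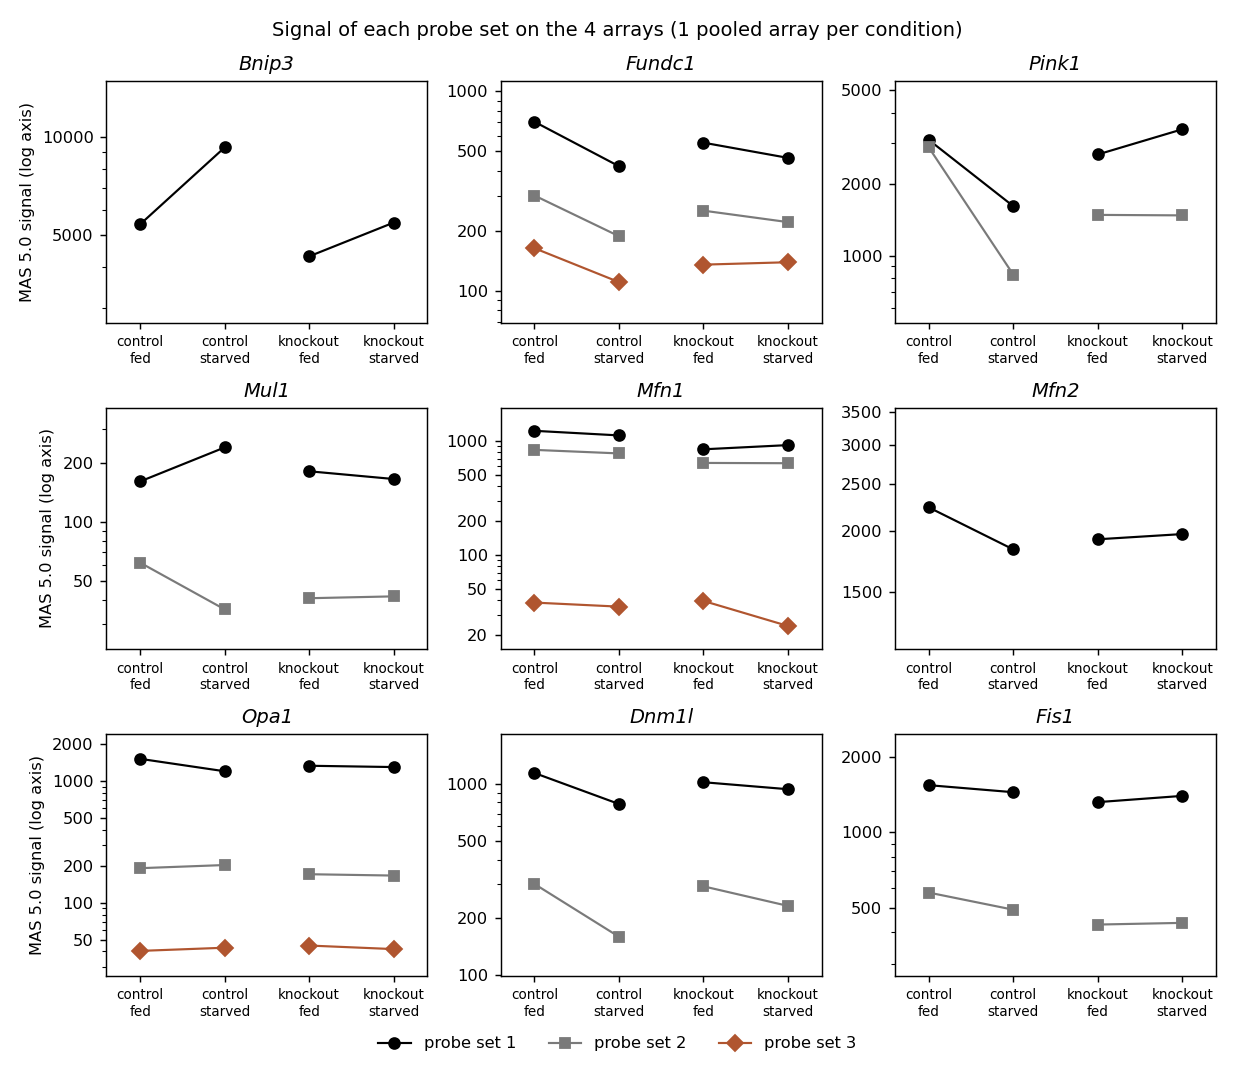
MAS 5.0 signal (log axis, a scale of its own in each panel) of each probe set past the filter on the 4 arrays, with probe sets numbered by mean signal and lines joining fed to starved within a genotype; each point is 1 pooled array. Bnip3 climbs from 5406.6 to 9312.6 in control muscle, and both Pink1 probe sets and all 3 Fundc1 probe sets are lower on the starved than on the fed control array.

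Among the receptors, Bnip3 had the only probe set of the whole set that was called up (1422470_at). Control muscle had a signal of 5406.6 when fed and 9312.6 when starved, and knockout muscle 4310.9 when fed and 5473.2 when starved. The starved control array stood above the other 3, which lay closer to each other than to it. The starved to fed ratio was thus 1.72 for controls and 1.27 for knockouts, a ratio of ratios of 1.36, which is under 1.5. The study had already named Bnip3 among its atrophy genes partly on these arrays, so that its direction here is not independent evidence. Apart from the arrays, the study measured Bnip3 by quantitative RT-PCR in tibialis anterior muscle and by Western blot. In both assays the study reported a rise on fasting in control but not in knockout muscle. The study also ran chromatin immunoprecipitation on fasted muscle, with primers for the Bnip3 promoter. It reported FoxO3 at almost all promoters analysed, and its text did not name Bnip3 there.

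Fundc1, the receptor known for hypoxia-induced mitophagy, moved the other way. Its leading probe set (1424215_at) had signals of 704.5 and 421.7 in control muscle (fed, starved) and 553.4 and 464.3 in fed and starved knockout muscle. The second (1453369_a_at) had 300.7 and 188.0 in control and 252.5 and 221.2 in knockout muscle, and the dimmest (1436278_at) 163.7 and 110.7 in control and 135.4 and 139.2 in knockout muscle. The starved control array was the lowest of the 4 on all 3 probe sets. The ratios on starvation were 0.599, 0.625 and 0.676 in control muscle, of which the first and second were called down, and 0.839, 0.876 and 1.03 in knockout muscle. The ratio of ratios on the leading probe set was 0.713, which did not pass the threshold.

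Pink1, the kinase of the damage-sensing route, had the lowest ratio of the set. The leading probe set (1451148_at) read 3085.2 in control muscle when fed and 1618.3 when starved, and 2675.8 and 3419.1 in knockout muscle. The second (1441937_s_at, a type of probe set that can also match related transcripts) had 2868.5 and 831.5 in control and 1486.0 and 1479.0 in knockout muscle. On both, the starved control array was the lowest of the 4. The starved knockout array was the highest on the leading probe set. On the second, the fed control array was the highest, and the fed and starved knockout arrays lay close together below it. The starved to fed ratios were 0.525 and 0.290 for controls, and 1.28 and 0.995 for knockouts. The ratio of ratios was 0.411 and 0.291, so that Pink1 was the only member whose response differed between the genotypes past 1.5-fold in 1 direction on all its probe sets.
The summed signal of hair follicle and epidermis markers ordered the arrays as the leading Pink1 probe set did, but not as the second did. Of 14 such markers, 9 had their 2 highest signals on the arrays of fed control and starved knockout muscle, and their summed signal was 1443.4, 713.8, 1051.2 and 2529.6 on the fed control, starved control, fed knockout and starved knockout array. These 9 were the hair follicle markers, with summed signals of 1173.0, 58.7, 124.2 and 1925.3. The full order of the leading Pink1 probe set was found in 6 of them. The 5 epidermal markers, a split made after the values were seen, had the fed control array lowest, with summed signals of 270.4, 655.1, 927.0 and 604.3. Of 14 skeletal muscle fibre markers, 5 had fed control and starved knockout highest, with summed signals of 155489, 145210, 153369 and 152330. No marker of either list was at 0 on any array, and their part in the Pink1 result was not tested.

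Mul1, the outer membrane ubiquitin ligase, was read differently by its probe sets. The leading one (1451401_a_at) had signals of 161.2 and 240.5 in control muscle (fed, starved) and 181.7 and 165.9 in fed and starved knockout muscle, a ratio of 1.49 in control, just under the threshold, and 0.913 in knockout muscle. The dimmer one (1434118_at) had 62.0 and 35.8 in control and 40.8 and 41.7 in knockout muscle, ratios of 0.577 and 1.02. On the first the starved control array was the highest of the 4 and on the second it was the lowest, so that no direction can be given for the gene. The ratio of ratios was 1.63 on the leading probe set, and the log2 difference between the genotypes turned from 0.71 to -0.06 with the mean over both.

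The fusion genes stayed under 1.5-fold on their leading probe sets in both genotypes. Mfn1, a mitofusin of the outer membrane, had signals of 1223.7 and 1115.4 in control muscle (fed, starved) and of 842.7 and 917.2 in fed and starved knockout muscle (1449697_s_at). Its second probe set (1426773_at) had 833.2 and 775.8 in control and 640.3 and 636.6 in knockout muscle. Both were lower on the knockout arrays than on either control array, and their ratios on starvation lay between 0.911 and 1.09. The dimmest probe set (1419997_at) went from 39.6 to 23.9 in knockout muscle, a ratio of 0.604, the only member probe set called down there.
Mfn2, the other mitofusin, had 2237.8 and 1836.3 in control and 1925.8 and 1973.6 in knockout muscle on its single probe set past the filter (1448131_at), ratios of 0.821 and 1.02. Opa1, the fusion dynamin of the inner membrane, had 1525.0 and 1205.2 in control and 1337.6 and 1305.1 in knockout muscle (1434890_at), ratios of 0.790 and 0.976. For both genes the starved control array was the lowest of the 4. The other Opa1 probe sets (1449214_a_at and 1418768_at) were dimmer, with a ratio of 1.06 each in controls and of 0.975 and 0.935 in knockouts.

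Of the fission genes, Dnm1l was lower on the starved control array and Fis1 differed little. Dnm1l, the dynamin that cuts the mitochondrion, had 1141.1 and 785.5 in control muscle (fed, starved) and 1021.0 and 938.6 in fed and starved knockout muscle on its leading probe set (1428086_at). The ratio there was 0.688 in control muscle, short of the threshold, and 0.919 in knockout muscle. The second probe set (1428087_at) had 299.7 and 158.7 in control and 291.3 and 230.1 in knockout muscle, ratios of 0.530, which was called down, and 0.790. On both the starved control array was the lowest of the 4.
Fis1, an outer membrane adaptor of division, had 1543.3 and 1446.8 in control and 1320.7 and 1398.7 in knockout muscle (1416764_at), ratios of 0.937 and 1.06. Its second probe set (1443819_x_at) had ratios of 0.855 and 1.02. The Fis1 signals of the 4 arrays lay closer together than those of the other members on their leading probe sets. The log2 fold changes on starvation were -0.09 in control and 0.08 in knockout muscle. The log2 ratios of knockout to control were -0.22 in fed and -0.05 in starved muscle.
Read by probe set, 1 of 19 was up and 6 were down in control muscle, where 10.1% of all probe sets past the filter were up and 14.5% down. In knockout muscle 0 were up and 1 was down, against 7.57% and 11.0%. For knockout over control, 0 were higher and 2 lower in fed muscle, against 4.03% and 12.2%, and 2 were higher and 1 lower in starved muscle, against 6.36% and 17.0%. Probe sets of 1 gene share its transcript and are not independent of each other.

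**Figure D2:**
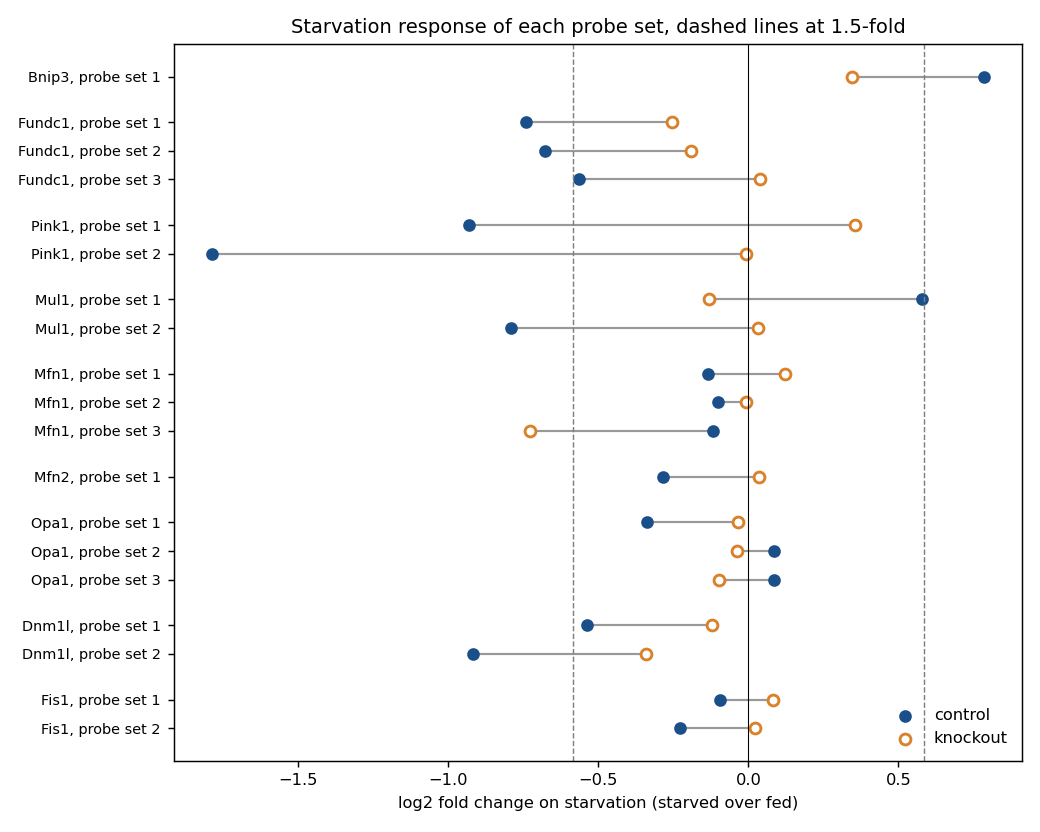
Log2 ratio of starved to fed signal for each of the 19 probe sets, with control muscle as filled and knockout muscle as open points (1 pooled array per condition) and dashed lines at 1.5-fold. Control values run from -1.79 for the second Pink1 probe set to 0.78 for Bnip3, and the knockout values of all but 1 probe set lie within the dashed lines.

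**Figure D3:**
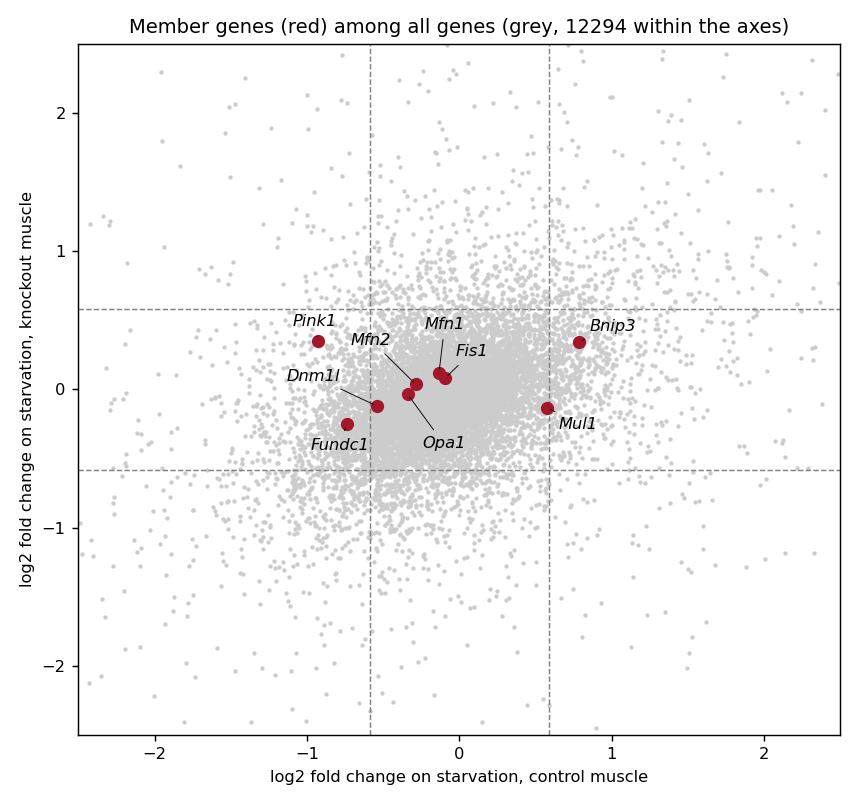
Log2 fold change on starvation in control (x axis) and knockout muscle (y axis), with 1 point per gene on its probe set of highest mean signal. The 9 members are red, the grey points are the genes within the axes, and 271 of the 12565 genes lie outside them; Bnip3, Pink1 and Fundc1 are past the vertical dashed lines at 1.5-fold and no member is past the horizontal ones.

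Between the genotypes, no member differed at 1.5-fold in fed muscle, and in starved muscle Bnip3 was lower and Pink1 higher in the knockout. In fed muscle, 0 of 9 genes were higher and 0 lower in the knockout, where 3.37% of all genes were higher and 11.3% lower. The ratios of knockout to control signal in fed muscle ran from 0.689 for Mfn1 to 1.13 for Mul1, with a median log2 ratio of -0.22 for the members and -0.20 for all genes. In starved muscle, 1 of 9 was higher and 1 lower, where 6.37% of all genes were higher and 14.5% lower. Pink1 had a ratio of knockout to control of 2.11 in starved muscle on the leading probe set, against 0.867 in fed muscle, and on the second the ratios were 1.78 and 0.518.
Bnip3 had a ratio of 0.588 in starved muscle, against 0.797 in fed muscle. The knockout arrays were dimmer for most genes, and in starved muscle 8435 of 12565 genes were lower and 4108 higher. The median log2 ratio over all genes was -0.16 in starved muscle, which 3 rescalings of the arrays brought to 0.02. Scaled to equal medians or trimmed means, the Bnip3 ratio was 0.667 and 0.668 and lost its call, and by quantiles it was 0.616 and kept it, whereas that of Pink1 was 2.34 to 2.40 over the 3 and kept it. Over these scalings 601 to 674 genes were higher and 787 to 903 lower in fed knockout muscle, against 424 and 1414 as deposited, and 1264 to 1279 were higher and 1039 to 1046 lower in starved knockout muscle, against 801 and 1828. On their leading probe sets, Fundc1, Mfn2, Opa1 and Dnm1l lay below 1 in fed and above 1 in starved muscle, with starved ratios of 1.10, 1.07, 1.08 and 1.19, none past the threshold, although rescaling put the fed ratios of Opa1 and Dnm1l at 0.969 to 1.02. The dimmer Opa1 probe sets had ratios of 0.892 and 1.11 in fed and of 0.820 and 0.974 in starved muscle (1449214_a_at, 1418768_at). These comparisons share arrays with those on starvation, so that a low starved control value enters both.
By the difference between the responses, 1 of 9 genes, Mul1, had a higher ratio in control than in knockout muscle at 1.5-fold, where 10.4% of all genes did, and 1, Pink1, a lower one, where 12.3% did.

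**Figure D4:**
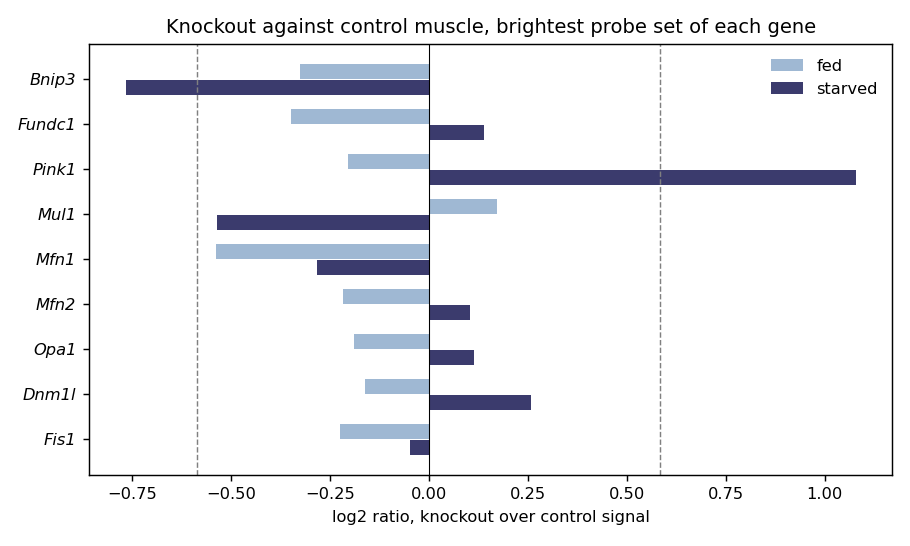
Log2 ratio of knockout to control signal for each gene on its probe set of highest mean signal, with light bars for fed and dark bars for starved muscle (1 pooled array per condition) and dashed lines at 1.5-fold. The dark bars of Bnip3, at -0.77, and Pink1, at 1.08, are the 2 that pass the lines.

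The genes whose signals over the 4 arrays were most like those of Bnip3 were Fam214a, Ubr4, Gpatch1, Sbds and Dync1h1. Likeness was the Euclidean distance between log2 signals centred on each gene's own mean, over 4 arrays and among 6271 other genes at or above the 75th percentile on every array, and it ran from 0.03 for Fam214a to 0.10 for Dync1h1. Fam214a had signals of 365.5 and 649.1 in control muscle (fed, starved) and 293.7 and 373.9 in fed and starved knockout muscle. Ubr4, a large ubiquitin ligase, had 304.6, 533.3, 249.7 and 292.7 in the same order. The heavy chain gene of cytoplasmic dynein, Dync1h1, had ratios on starvation of 1.72 in controls and 1.17 in knockouts. Likeness over 4 arrays says nothing about shared control.

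The other genes of mitophagy were listed by function, and 21 of 23 were measured. In control muscle 4 rose and 1 fell, where 9.21% and 14.2% of all genes did, and in knockout muscle 2 rose and none fell, where 7.36% and 9.45% did. The list had a median log2 fold change of 0.21 in controls and 0.07 in knockouts. Sqstm1, the gene of the adaptor p62, was chosen by the study partly on these arrays. The study also measured it by quantitative RT-PCR and Western blot, and reported a rise on fasting in control but not in knockout muscle. By chromatin immunoprecipitation on fasted muscle, the study reported FoxO1 at the p62 promoter. The Sqstm1 signals here were 2022.5 and 3370.8 in control muscle (fed, starved) and 1391.4 and 1823.9 in knockout muscle, ratios of 1.67 and 1.31. Tax1bp1, another autophagy adaptor, had 807.8 and 1257.5 in control and 694.6 and 706.2 in knockout muscle, ratios of 1.56 and 1.02. The kinase gene Tbk1, whose product phosphorylates such adaptors, had 538.0 and 888.9 in control and 453.2 and 469.7 in knockout muscle, ratios of 1.65 and 1.04. For these genes the starved control array was the highest of the 4.
Bcl2l1, which encodes the survival protein BCL-XL, had ratios of 1.70 in controls and 1.03 in knockouts, while its dimmer probe set had log2 fold changes of 1.48 and 1.42. Nipsnap1, dim on every array, had signals of 42.7 and 21.3 in control and 14.8 and 24.3 in knockout muscle, ratios of 0.499 and 1.64. The second gene that rose in knockout muscle was the adaptor gene Calcoco1, named here after its values were seen, with ratios of 1.40 in controls and 1.55 in knockouts. Against starved control muscle, 7 of the 21 were lower in starved knockout muscle and none higher, where 14.5% and 6.37% of all genes were. Tbk1 had a ratio of knockout to control of 0.528, Sqstm1 of 0.541 and Tax1bp1 of 0.562, and 3 of the 7, Ambra1, Fkbp8 and Nbr1, lost their calls under each scaling of the arrays.

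Of 12 listed fission genes 11 were measured, and in control muscle 4 fell and none rose, where 14.2% and 9.21% of all genes did. In knockout muscle none passed the threshold in either direction, where 9.45% of all genes fell and 7.36% rose. The list had a median log2 fold change of -0.44 in controls and -0.12 in knockouts. Mtfp1, a fission protein of the inner membrane, had signals of 1057.0 and 601.6 in control muscle (fed, starved) and of 927.7 and 848.3 in fed and starved knockout muscle, ratios of 0.569 and 0.914. Mief2, which encodes the DRP1 receptor MID49, had 815.8 and 518.0 in control and 765.3 and 731.6 in knockout muscle, ratios of 0.635 and 0.956. In both, the starved control array was the lowest of the 4.
Mtfr1, named as a fission regulator, had ratios of 0.646 in controls and 0.737 in knockouts, and its call in control muscle was lost with scaling to the same trimmed mean or by quantiles. Its 2 probe sets ran from -0.70 to -0.63 in log2 fold change in controls and from -0.44 to 0.60 in knockouts. Gdap1, an outer membrane protein linked to fission, had signals of 313.9 and 73.7 in control and 308.1 and 227.2 in knockout muscle, ratios of 0.235 and 0.737, but its 4 probe sets ran from -2.09 to 0.73 in log2 fold change in control muscle. By the difference between the responses, 4 of the 11 had a lower ratio in control muscle at 1.5-fold and 1 a higher one, where 12.3% and 10.4% of all genes did. Stx17, a SNARE of autophagosomes and mitochondrial contact sites, was among the 4, with ratios of 0.737 in controls and 1.15 in knockouts. However, its 4 probe sets ran from -0.44 to 0 in log2 fold change in controls and from -0.38 to 0.29 in knockouts. Mief2, also among the 4, lost its call on this difference with scaling by quantiles. Spire1, an actin nucleator, was the 1 with a higher ratio, at 1.09 and 0.702. The 3 Spire1 probe sets, though, ran from 0.12 to 1.81 in log2 fold change in controls and from -0.51 to 3.29 in knockouts.

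Of the genes of fusion control, inner membrane shape and mitochondrial proteases, 17 of 19 were measured. None rose or fell at 1.5-fold on starvation in either genotype, where 9.21% and 14.2% of all genes did in controls and 7.36% and 9.45% in knockouts, with median log2 fold changes of -0.14 in control and -0.06 in knockout muscle. Oma1, the protease that cleaves OPA1 under stress, had signals of 376.4 and 268.2 in control and 287.9 and 300.1 in knockout muscle, ratios of 0.713 and 1.04. Spg7, a subunit of the inner membrane m-AAA protease, had ratios of 0.724 and 1.12, and the gene of the cristae protein MIC10, Micos10, had 0.722 and 0.919. By the difference between the responses 1 of the 17, Spg7, had a lower ratio in control muscle at 1.5-fold, where 12.3% of all genes did.
Stoml2, a scaffold protein of the inner membrane, had ratios of 0.849 in controls and 1.21 in knockouts. Letm1, an ion transport protein of the inner membrane, had 0.777 and 0.810, and its 4 probe sets ran from -1.46 to 0.53 in log2 fold change in controls. The protease gene Htra2 went the other way on its leading probe set, with ratios of 1.19 in controls and 0.865 in knockouts. Its 2 probe sets ran from -0.09 to 0.26 in log2 fold change in controls and from -0.21 to -0.11 in knockouts.
Among 11 genes of mitochondrial transport and the outer membrane pore, 2 fell and none rose in control muscle, where 14.2% and 9.21% of all genes did, and none passed the threshold in knockout muscle, where 9.45% fell and 7.36% rose. Those that fell were the motor adaptor genes Trak1, with signals of 729.3 and 356.2 in control and 584.6 and 408.5 in knockout muscle, and Trak2, with 591.5 and 323.8 in control and 439.2 and 375.3 in knockout muscle. The ratios were 0.488 and 0.699 for Trak1 and 0.547 and 0.855 for Trak2. Trak2 was also the 1 gene of the 11 with a lower ratio in control muscle by the difference between the responses, where 12.3% of all genes had one. Rhot2, the GTPase that anchors these adaptors to mitochondria, had ratios of 0.790 in controls and 1.11 in knockouts. Vdac1, a pore protein of the outer membrane, had 0.862 and 0.956, and Vdac2, its relative, had 0.867 and 1.05.

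**Figure D5:**
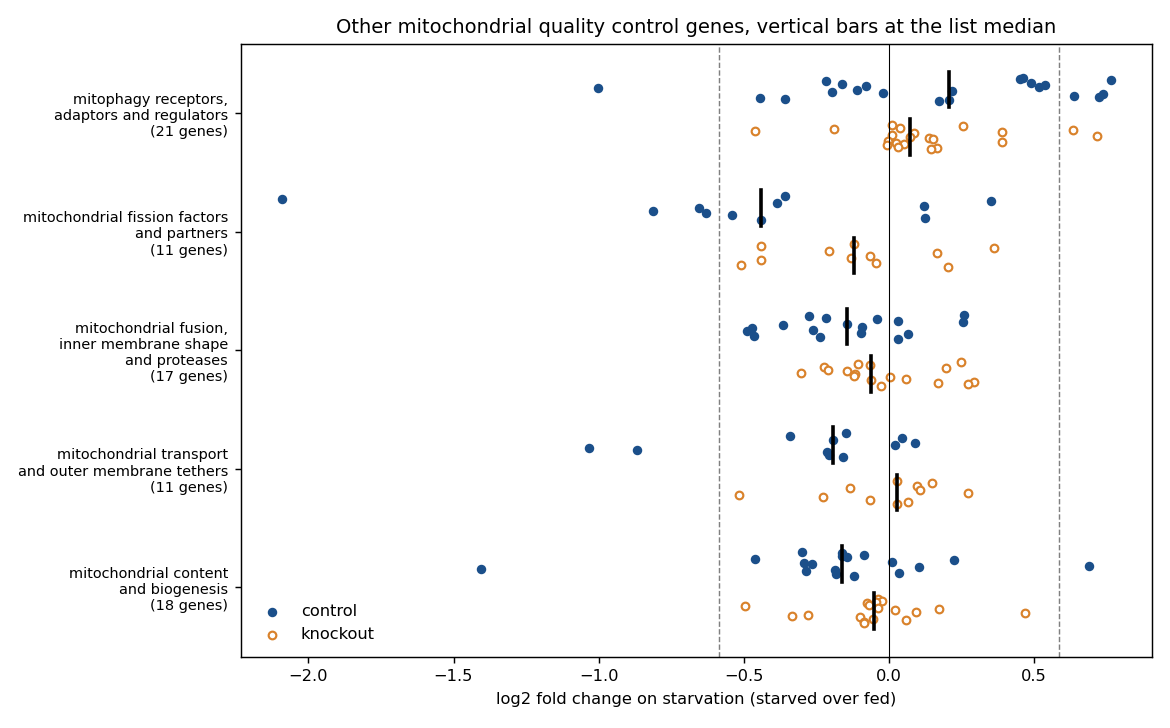
Log2 fold change on starvation of the genes in each list, with control muscle as filled and knockout muscle as open points (1 pooled array per condition), vertical bars at the list medians and dashed lines at 1.5-fold. The fission list has its median at -0.44 for controls and -0.12 for knockouts, and the mitophagy list at 0.21 and 0.07.

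The arrays differed in level, with a median signal of 26.3 in fed control, 26.0 in starved control, 23.8 in fed knockout and 22.9 in starved knockout muscle. The targeted genes were read as a check of the labels. Foxo4 had signals of 296.9 and 291.3 in control and 31.3 and 34.3 in knockout muscle, and Foxo1 303.8 and 554.4 in control and 185.2 and 165.5 in knockout muscle. Foxo3 had 250.1 and 477.8 in control and 297.3 and 460.9 in knockout muscle, and whether the probe sets of these 3 genes lie in the deleted parts was not analysed here. Muscle fibre markers were bright on every array, with none of the 14 under 1253.7.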

How the data were processed

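Expression was measured on Affymetrix mouse whole-genome arrays, 1 per condition. The authors summarized probes to probe sets with MAS 5.0 (Affymetrix Expression Console is also listed in the submitters' processing notes), and the deposited values are signal intensities on a linear scale. No scaling target or detection call is given in the sources used here. Array medians differ, and signals were used as deposited. A signal of 0 was set to 0.1 before a logarithm.

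Of 45037 probe sets, 34945 have 1 gene in the platform annotation, 932 have several and 9160 have no entry. With the RefSeq table of GRCm38.p6, 34741 symbols were matched by gene identifier. Probe sets at or above the 50th percentile of any array were used, and the brightest on average stood for its gene. Computations used pandas 2.3.3 and numpy 2.4.6 under Python 3.11.15, and plots matplotlib 3.10.9. Calls were tested on simulated data with known fold changes. The simulated noise was smaller than the spread between probe sets of 1 gene here. The test thus checks the computation and not how reliable calls near 1.5-fold are. With 1 array per condition there is no p-value or SD, and precision is limited by this number.

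The members and lists were chosen with earlier results of these data known. The text names all members, Foxo1, Foxo3 and Foxo4, in each list up to 4 genes by change in control muscle and up to 4 by difference in response, and the 5 genes most like Bnip3. Ambra1, Fkbp8, Nbr1 and Calcoco1 are named outside this rule. The alternatives were the scaling of the arrays, the filter on dim signals, an added offset, the choice or mean of probe sets per gene, leaving out probe sets that can match several transcripts, and the fold threshold.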

Additional observations from a re-analysis of the deposited data

Results flagged for a closer look

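For 5 members the leading probe set moved in opposite directions on starvation in control and knockout muscle, and the difference was not tested, since each condition has 1 array. The log2 fold change in control minus that in knockout muscle was -1.28 for Pink1, from -0.93 and 0.35. It was 0.71 for Mul1, from 0.58 and -0.13, and its dimmer probe set had the opposite order. It was -0.32 for Mfn2, -0.26 for Mfn1 and -0.18 for Fis1, none of which passed 1.5-fold in either genotype on the leading probe set. The other 2 Mfn1 probe sets were lower on starvation in both genotypes, at -0.10 and -0.12 in control and -0.01 and -0.73 in knockout muscle, and averaging its probe sets gave a Mfn1 difference of 0.09. The SD of this difference between probe sets of the same gene was 0.37 for genes in the top quartile of signal and 0.51 in the next quartile, which does not include differences between mice or pools.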

How the results depend on the processing

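No paired analysis was possible because each condition has 1 array and the labels give no replicate numbers. The 9 genes were measured under every alternative, and counts of 0 in knockout muscle on starvation and in fed knockout against fed control muscle were 0 under all 10. In control muscle 2 genes were up, Bnip3 and Mul1, after scaling to equal medians or trimmed means or by quantiles, against 1 as deposited. With the mean over probe sets, Dnm1l was also called down in control muscle, at a log2 fold change of -0.73. In starved knockout against starved control muscle, 1 gene differed and 0 were lower with median or trimmed mean scaling, against 2 and 1. With the mean over probe sets, 1 gene differed in response between the genotypes and 0 had a higher ratio in control muscle, against 2 and 1, and the log2 difference of Mul1 reversed to -0.058. At a threshold of 2-fold, 0 genes changed in control muscle, 0 up and 0 down, and Pink1 was the 1 that differed between starved knockout and control muscle, with 0 lower, and the 1 that differed in response, with 0 higher in control muscle. Of the members' log2 values under an alternative, 399 moved by less than the SD between probe sets, 5 moved by more, and 1 past 1.5-fold as deposited, that of Mul1 above, changed sign. Many of the 399 could not move, so that their number does not measure robustness. Each change of the percentile filter left every member on the same leading probe set. Bnip3 and Mfn2 have 1 probe set past the filter, so that its mean is the same value. In all, 16 of the members' values changed sign, of which the other 15 were under 1.5-fold as deposited, among them Mul1 in control muscle (0.58 to -0.11). By setting, 8 of the 16 came with scaling, in Opa1, Dnm1l and Fis1, 7 with the mean over probe sets, in Mul1, Mfn1 and Opa1, and 1, Mfn1 in knockout muscle, without probe sets that can match several transcripts. For the lists 697 values stayed within that SD or within 1.5 times the count and 53 did not.

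The background depends on the filter, the offset and the threshold. On starvation, genes up and down numbered 1157 and 1785 in controls, and 925 and 1187 in knockouts. The counts were 514 and 837, and 286 and 416, with the filter at the 75th percentile. They were 2976 and 3582, and 2738 and 2979, without a filter. With an offset of 32 they were 590 and 942, and 394 and 438, and at 2-fold 469 and 605, and 414 and 403. For fed knockout over control muscle the counts of 424 and 1414 became 44 and 408, 2066 and 3414, 140 and 468, and 219 and 446 in the same order of settings, and for starved muscle those of 801 and 1828 became 274 and 831, 2405 and 3844, 369 and 845, and 380 and 568.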

Other observations

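Genes of mitochondrial content and biogenesis mostly stayed near their fed signal. Of 18 measured, 1 rose and 1 fell at 1.5-fold in control muscle and none passed the threshold in knockout muscle, where 9.21% and 14.2%, and 7.36% and 9.45%, of all genes did. The list had a median log2 fold change of -0.16 in controls and -0.05 in knockouts. Ppargc1b, a coactivator of mitochondrial biogenesis, had signals of 416.6 and 157.1 in control muscle (fed, starved) and 359.4 and 285.0 in fed and starved knockout muscle, ratios of 0.377 and 0.793. Nrf1, a regulator of nuclear genes for respiration, had dim signals of 46.3 and 74.6 in control and 42.8 and 59.2 in knockout muscle, ratios of 1.61 and 1.38, and its 3 probe sets ran from -0.16 to 0.69 in log2 fold change in control muscle. Ppargc1a, the better known coactivator, had ratios of 1.07 in control and 0.824 in knockout muscle. Esrra, a nuclear receptor that acts with these coactivators, had ratios of 0.726 and 0.709, and its dimmer probe set had a log2 fold change of 0.00 in controls and -0.52 in knockouts. The complex I subunit genes Ndufs1 and Ndufv1 had 0.817 and 1.01, and 0.832 and 1.07. Atp5a1, a subunit of ATP synthase, had 0.813 and 0.974, and its 3 probe sets ran from -0.30 to 0.60 in log2 fold change in controls.

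Markers of other cells differed between arrays, and markers of 1 list did not always move together. In control muscle (fed, starved), the endothelial marker Kdr had 368.1 and 218.4, and Cldn5 had 337.5 and 515.9. Among the blood cell markers, Hba-a1 had signals of only 1.8 to 3.1 and was not past the filter. The summed signal of 6 fibroblast and matrix markers was 30444.1 and 22392.7 in control muscle (fed, starved) and 27102.2 and 20658.5 in knockout muscle. That of 6 endothelial markers was 3007.3, 3094.4, 2452.3 and 2551.8 in the same order, that of 6 macrophage markers 5757.0, 5735.6, 4525.8 and 4274.9, that of 4 adipocyte markers 5107.7, 5820.3, 4041.5 and 3417.7, that of 4 blood cell markers 186.7, 437.8, 229.4 and 161.6, and that of 3 Schwann cell markers 5721.2, 5811.2, 5813.6 and 4835.7.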
